A study of Homo sapiens with 14 samples.

Results

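BAAT and 9 other bile acid genes were followed through the differentiation of human embryonic stem cells (hESC) to endoderm and foregut, with and without repression of LTR5. BAAT encodes the enzyme that joins bile acids to glycine or taurine. The other 9 genes were SLC27A5, CYP7A1, CYP8B1, CYP27A1, NR0B2, NR1H4, ABCB11, SLC10A1 and FGF19. The 10 genes were chosen because BAAT had been seen to rise in LTR5-repressed foregut, and the question was whether its rise came with other bile acid genes. They are 10 of the 63677 gene IDs counted in each bulk library. The foregut contrast with and without the sgRNA is therefore described below without a test for these genes.

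All cells derived from H9, an established hESC line. Bulk RNA-seq covered 2 libraries of undifferentiated hESC, 3 of endoderm control, 3 of endoderm LTR5 CRISPRi, 2 of foregut control and 2 of foregut LTR5 CRISPRi. Endoderm was obtained with 3 days of Activin A at 100 ng/ml, together with the GSK-3 inhibitor CHIR-99021 at 5 μM on the first day and 0.5 μM on the second. Foregut had 3 further days in a commercial pancreatic differentiation medium. Control and CRISPRi endoderm and foregut cells all carried dCAS9-KRAB, a Cas9 without cutting activity fused to a repressor domain, delivered by lentivirus under puromycin selection. CRISPRi cells in addition carried an sgRNA designed on LTR5, the long terminal repeat of the primate endogenous retrovirus HERVK. The cells were a selected population of 1 line, and the controls carried no sgRNA. One preparation of gastruloids, embryo-like aggregates of 800 H9 cells per well harvested at 72 h, had single-nucleus RNA and chromatin accessibility. Groups were taken from the titles, and for the 4 foregut libraries the status field went against them. It calls both libraries titled as control hESC, and both titled as CRISPRi endoderm-derived cells that lack the sgRNA. Every statement on the sgRNA in foregut therefore rests on the titles, and foregut LTR5 CRISPRi or LTR5-repressed foregut below means the libraries titled so.

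Bile acids are made from cholesterol in the hepatocyte. In the classic route CYP7A1 and CYP8B1 hydroxylate the sterol ring, and CYP27A1, a mitochondrial enzyme found in many tissues, oxidises the side chain. SLC27A5 then activates bile acids with coenzyme A and BAAT conjugates them, after which ABCB11 exports them into bile and SLC10A1 takes them up again from blood. The nuclear receptor NR1H4 (FXR) senses bile acids and induces NR0B2 (SHP) and, in the intestine, the hormone FGF19, and both of these restrain synthesis. FGF19 is also a growth factor of the early embryo.

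BAAT lies on the minus strand at chr9:104116464-104147682 (GRCh37). A MER11A integrant, the long terminal repeat of HERVK11, lies over its start at chr9:104147141-104148282 and is 1142 bases long. Of the 5 annotated transcripts of BAAT, 2 start inside this integrant, at 104147682 (ENST00000674791) and at 104147288 (ENST00000259407), and 542 of its 4734 exon bases (11.4%) lie in it. The other 3 transcripts start outside. One annotated start of BAAT outside the integrant is shown because reads of the gene cannot be assigned to either kind of start. This RefSeq window runs from 250 bases before to 50 bases after the start, at chr9:101383824-101384123 on the minus strand of GRCh38.p14. It was found letter for letter at chr9:104146106-104146405 of GRCh37, and its transcript start at 104146155 lies 986 bases from the MER11A.
BAAT start outside the MER11A: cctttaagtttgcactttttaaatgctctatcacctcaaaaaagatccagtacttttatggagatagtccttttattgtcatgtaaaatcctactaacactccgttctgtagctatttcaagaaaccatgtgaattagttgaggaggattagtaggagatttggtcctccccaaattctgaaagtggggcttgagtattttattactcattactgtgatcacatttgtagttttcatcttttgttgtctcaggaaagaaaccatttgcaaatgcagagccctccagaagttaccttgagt
Letters typical of several motifs were searched on both strands, and 4 of the motifs are given here. For HNF4 the letters were a direct repeat with a 1-base spacer, and for FXR an inverted repeat with a 1-base spacer. For FOXA factors they were TGTTTAC, and for factors of the GATA family AGATAA. None was found in this sequence, and the BAAT starts inside the MER11A are not described here. The HNF4 letters are in 0.0228% of 35116 RefSeq promoter windows, the FXR letters in 0, the FOXA letters in 3.42% and AGATAA in 10.3%. RefSeq windows were at hand for 6 of the 10 genes.

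LTR5 itself was read first, since the sgRNA targets it. Reads of the 1033 integrants whose name holds LTR5B or LTR5_Hs, per 1000000 gene reads, were 21.2 and 23.4 in hESC. They were 23.8, 24.8 and 22.8 in endoderm control and 12.0, 16.0 and 16.8 in endoderm LTR5 CRISPRi. The 2 endoderm groups did not overlap, with means of 23.8 ± 0.980 and 14.9 ± 2.58 (SD, n = 3 each). An exact 2-sided permutation test gave p = 0.1, the smallest p that 3 against 3 allows. In foregut the values were 21.5 and 18.0 in controls and 10.0 and 13.3 in CRISPRi. On this count LTR5 reads were lower in each of the CRISPRi libraries than in any control of its tissue. Over the 920 integrants that carry a single LTR5 name the endoderm groups overlapped, at 13.5, 15.2 and 12.4 in controls and 8.82, 11.7 and 13.9 in CRISPRi, where replicate 3 lay above 2 of the controls. The foregut groups did not overlap on that count either, at 15.2 and 15.1 in controls and 6.94 and 11.4 in CRISPRi. The nearest LTR5B or LTR5_Hs integrant to BAAT lay 4121 kb away. Among the other 9 genes only CYP8B1 had one within 100 kb, at 43.8 kb, against 12.1% of all 19488 protein-coding genes.

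Depth was 11583063 to 37152434 gene reads per library, and a count of 0 allows up to 3 reads, or 0.0807 to 0.259 CPM (reads of a gene per 1000000 reads in genes). Intervals and floors cover counting error only. The foregut libraries stood apart at low counts: 2.12 to 2.67% of their detected genes had 1 or 2 reads, against 13.3 to 17.3% in the other 8. The 10th percentile of the reads of detected genes was 13 to 27.4 in foregut libraries and 1 to 2 in the others. Between 15005 and 17926 genes were detected in foregut and 19678 to 20973 elsewhere. Counts of 0 in foregut should be read with these values. Replicates are separate libraries of 1 cell line, and p-values measure the spread between them.

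BAAT was high in LTR5-repressed foregut alone. It had 3 and 5 reads in hESC (0.127 and 0.222 CPM), 0 in each endoderm control, and 1, 0 and 0 in endoderm LTR5 CRISPRi. Foregut controls had 32 and 41 reads (0.980 and 1.10 CPM), and foregut LTR5 CRISPRi had 2777 and 2134 reads (87.2 and 103 CPM). Both CRISPRi foregut libraries were far above every other library, and the 2 groups did not overlap, as for 9.71% of all genes on the higher side. The group means were 1.04 ± 0.0871 and 94.9 ± 10.9 CPM (SD, n = 2 each), a fitted log2 fold change of 6.52 ± 0.47 (SE). This contrast chose the gene, so the fold is a description. By fitted log2 fold change BAAT ranked 431 from the top of 20044 genes, and 118 of the 430 genes above it had a group mean of at least 1 CPM.

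The remaining 9 genes did not show the pattern of BAAT. CYP7A1, CYP8B1, NR1H4, ABCB11 and SLC10A1 had no read in any of the 12 libraries. NR0B2 had 2 reads in 1 endoderm control and none elsewhere. CYP7A1 and CYP8B1, the enzymes that set the rate and the product of synthesis, and both bile acid carriers were thus below detection also in LTR5-repressed foregut.

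**Figure D1:**
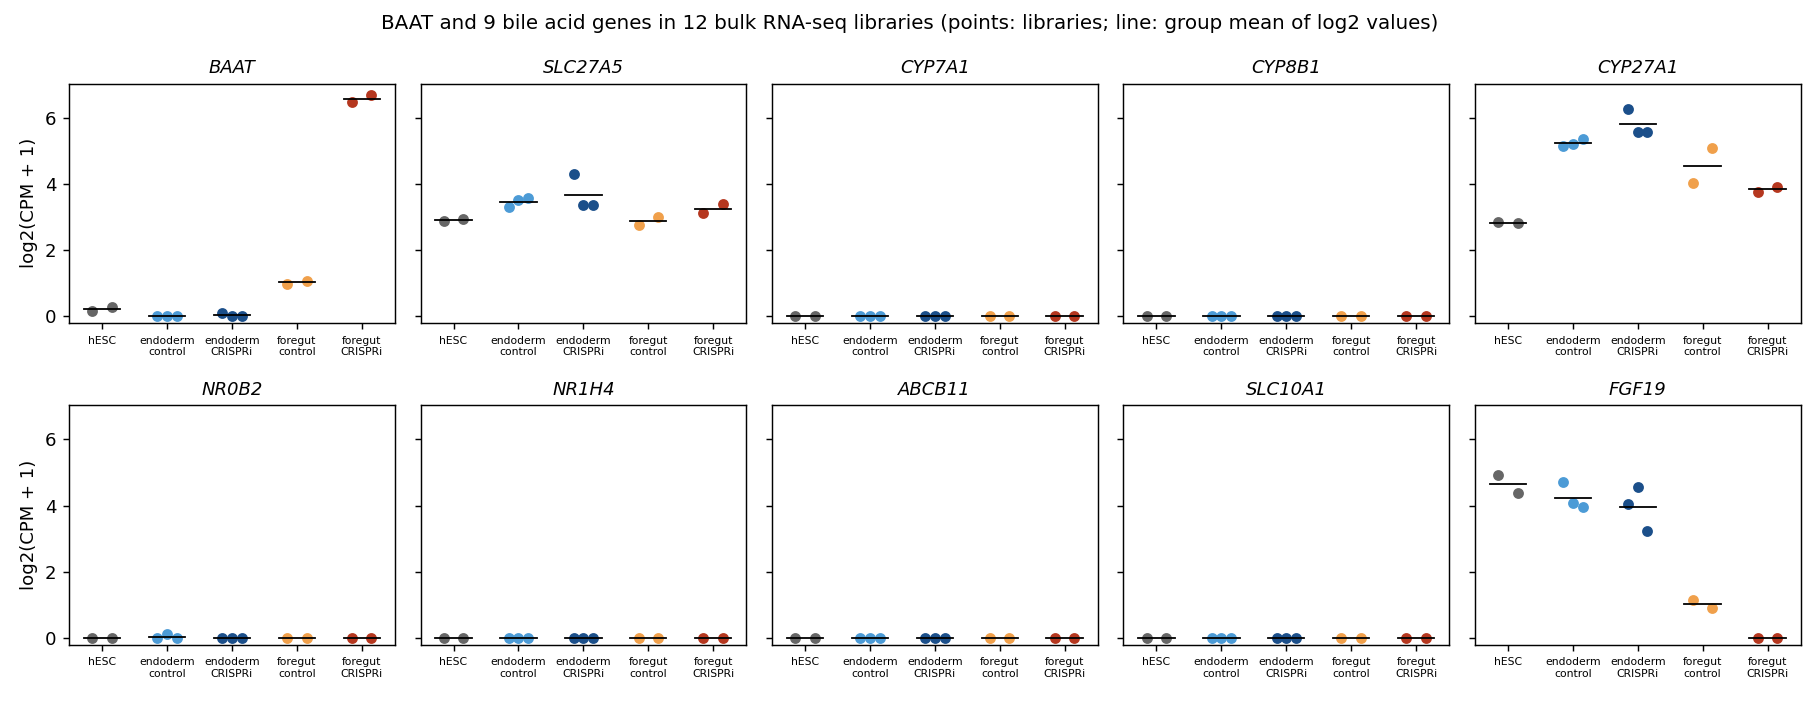
Level of each of the 10 genes in the 12 bulk libraries, as log2(CPM + 1), with 1 point per library and a line at the group mean of the log2 values. BAAT reached 87.2 and 103 CPM in foregut LTR5 CRISPRi, while CYP7A1, CYP8B1, NR1H4, ABCB11 and SLC10A1 lie at 0 in every library.

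SLC27A5, the bile acyl-CoA synthetase that acts just before BAAT, was read in every library. Its level in hESC was 6.41 and 6.74 CPM and in endoderm control 8.95, 10.4 and 10.8 CPM. In endoderm LTR5 CRISPRi it was 18.6, 9.32 and 9.24 CPM, where replicate 1 alone was high. Foregut controls had 5.79 and 6.97 CPM and foregut LTR5 CRISPRi 7.69 and 9.47 CPM. The 2 foregut groups did not overlap, but the group means of 6.38 ± 0.835 and 8.58 ± 1.25 CPM (SD, n = 2 each) stood only 1.36-fold apart in the fit (log2 fold change 0.45 ± 0.60, SE). Exons of SLC27A5 overlap those of ZNF446 on the opposite strand, which had up to 826 reads in a library, and the use of strand in counting is not given in the sources used here, so its counts are uncertain.

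CYP27A1, the sterol side-chain hydroxylase, was higher in every endoderm library than in hESC. It had 6.16 and 6.07 CPM in hESC and 34.6, 35.5 and 40.2 CPM in endoderm control. Endoderm LTR5 CRISPRi had 76.3, 46.6 and 46.6 CPM, all above the controls, as for 4.65% of all genes. In foregut the direction was the opposite, with 15.2 and 33.1 CPM in controls and 12.5 and 14.1 CPM in CRISPRi. The foregut difference was a fitted log2 fold change of -0.81 ± 0.44 (SE), and the controls themselves differed by more than the gap to the CRISPRi libraries.

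FGF19 did not rise with BAAT. It had 29.1 and 19.8 CPM in hESC, 25.3, 15.8 and 14.4 in endoderm control and 15.7, 22.6 and 8.37 in endoderm LTR5 CRISPRi. Foregut controls had 39 and 32 reads (1.19 and 0.861 CPM), and both foregut LTR5 CRISPRi libraries had 0. The 10th percentile of reads over detected genes was 13 in both controls and 14 and 27.4 in the CRISPRi libraries. The control reads of FGF19 are close to these low ends, so no fold is given for its absence from the CRISPRi libraries.

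Levels of the 10 genes were set against each other as reads per kilobase of exon per 1000000 gene reads. On that scale the mean in LTR5-repressed foregut was 20.04 ± 2.29 for BAAT, 4.47 ± 0.379 for CYP27A1 and 1.07 ± 0.156 for SLC27A5 (SD, n = 2), with the other 7 genes at 0. In foregut control the order was CYP27A1 at 8.09 ± 4.25, SLC27A5 at 0.795 ± 0.104, FGF19 at 0.565 ± 0.129 and BAAT at 0.220 ± 0.0184. SLC27A5 and FGF19 there lie within their summed spread. In endoderm control CYP27A1 (12.3 ± 1.01) and FGF19 (10.2 ± 3.26; SD, n = 3) were highest and lay within their spread of each other, and SLC27A5 was at 1.25 ± 0.122.

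The comparisons that the choice of genes did not use went through the quasi-likelihood test of edgeR, and p-values were adjusted by Benjamini-Hochberg over all genes fitted. To be called, a gene had to reach an adjusted p below 0.05 and more than a 2-fold change. From hESC to endoderm control 4 of the 10 genes had enough reads for the fit, and CYP27A1 was called higher, by 2.66 ± 0.23 (SE) on the log2 scale (adjusted p = 3.22e-07), against 14.2% of all 20818 genes called higher. SLC27A5 was higher by 0.69 ± 0.25 on the log2 scale (adjusted p = 0.0414), under the fold limit. FGF19 had a log2 fold change of -0.35 ± 0.27 (adjusted p = 0.319). BAAT, with its few hESC reads, was not called (adjusted p = 0.0824).

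In endoderm with against without the sgRNA, 3 of the 10 genes were fitted and none was called, in a comparison where 0.0343% of 20407 genes were. At an unadjusted p under 0.05, 1 of the 3 was higher, against 2.66% of all genes. The log2 fold change of CYP27A1 was 0.67 ± 0.24 (adjusted p = 0.746), SLC27A5 of 0.36 ± 0.31 and FGF19 of -0.22 ± 0.31 (adjusted p = 0.999 for both). DESeq2 and limma voom called 0 of them as well. BAAT was below the 3 reads required, so the rise seen in LTR5-repressed foregut was not detectable in endoderm at this depth. The difference between the tissues was not tested, as the foregut values chose the gene.

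From endoderm control to foregut control 4 of the 10 genes were fitted, 1 was called higher and 1 lower, against 14.1% and 15% of 21466 genes. These foregut controls also enter the contrast with the sgRNA. BAAT was at least 6.58-fold higher than the floor of 3 reads in endoderm (adjusted p = 0.00944), and with the replicate number as a block this call was lost (adjusted p = 0.0755). FGF19 fell by 4.15 ± 0.42 on the log2 scale (adjusted p = 0.00012). CYP27A1 had a log2 fold change of -0.63 ± 0.31 (adjusted p = 0.147) and SLC27A5 of -0.65 ± 0.29 (adjusted p = 0.115). Without foregut control replicate 2, which had the higher CYP27A1 value, CYP27A1 was called lower with a log2 fold change of -1.13 (adjusted p = 0.01).

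**Figure D2:**
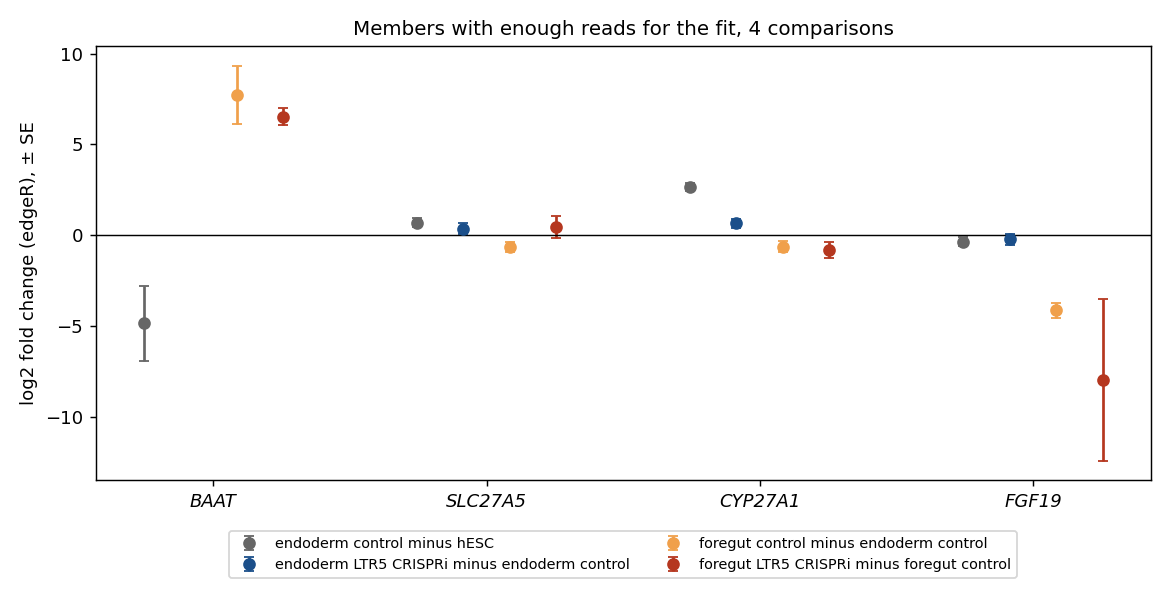
Log2 fold change with its SE (edgeR) of the 4 genes with enough reads, in the 4 comparisons. BAAT stands at 6.52 in foregut with the sgRNA while SLC27A5 and CYP27A1 lie at 0.45 and -0.81, and no point is drawn for BAAT in endoderm with the sgRNA, where it had 1 read in all.

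The wider pathway was described with 46 other bile acid genes: 14 of synthesis, 17 of transport and handling, and 15 receptors and regulators. In foregut with against without the sgRNA 37 of the 46 were fitted and 0 were called by edgeR, against 0.165% of all 20044 genes, and at an unadjusted p under 0.05, 1 was higher and 1 lower, against 1.51% and 1.98% of all genes. These 2 genes are a description of values and not a result of the test. The median log2 fold change was -0.05 over 12 synthesis genes, -0.03 over 11 transport genes and -0.34 over 14 receptors and regulators, against -0.06 over all genes tested. The groups did not overlap for 5 genes on the higher side (13.5%) and 8 on the lower side (21.6%), against 9.71% and 16% of all genes. The gene past an unadjusted p of 0.05 on the higher side was ACOX2, an oxidase of bile acid side-chain shortening, at 6.10 and 15.9 CPM in controls and 21.3 and 18.5 CPM in CRISPRi. The gene on the lower side was NR5A2, a nuclear receptor that drives bile acid synthesis genes in liver, at 8.27 and 4.84 CPM and then 1.95 and 1.83 CPM. Both were named after their values were seen. Genes far from 0 in the fit had few reads. SLC51B, for example, was at 0 in both controls and at 0.188 and 1.11 CPM in CRISPRi.

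**Figure D3:**
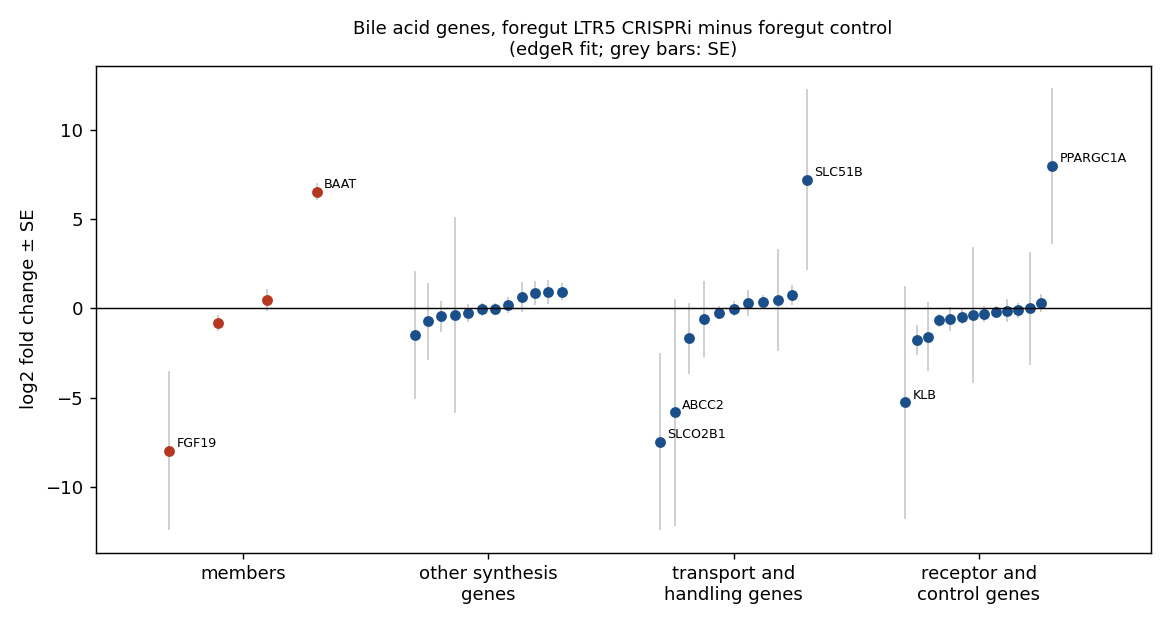
Log2 fold change with SE (grey bars) of every fitted bile acid gene in foregut LTR5 CRISPRi against foregut control, in 4 columns for the chosen genes (red) and the 3 wider lists (blue). BAAT lies at 6.52 with a short bar, while genes such as SLC51B, PPARGC1A and SLCO2B1 lie far from 0 with bars of several log2 units.

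Some of the 46 genes changed with differentiation. From endoderm control to foregut control 38 were fitted, of which 11 were called higher (28.9%) and 4 lower (10.5%), against 14.1% and 15% of all genes. The medians were 0.76 for synthesis, 1.08 for transport and 0.78 for receptors and regulators, or 0.55, 1.08 and 0.41 with genes absent from 1 group set at their bound, against -0.09 for all genes. AKR1D1, the reductase that gives bile acids their bent ring, had 0 reads in every endoderm control and 6.19 and 2.50 CPM in foregut control (adjusted p = 0.000794). CYP39A1, an oxysterol hydroxylase, rose from a mean of 0.404 CPM in endoderm control by 3.40 ± 0.59 on the log2 scale (adjusted p = 0.00223). FABP6, the ileal bile acid binding protein, rose by 3.49 ± 0.50 (adjusted p = 0.000793), and GPBAR1, the membrane bile acid receptor, from 0.031 CPM to 6.37 and 8.02 CPM (adjusted p = 0.00012). SLC51A, a subunit of a basolateral exporter, rose by 5.16 ± 0.99 (adjusted p = 0.00379). HSD17B4, a peroxisomal enzyme of side-chain shortening, fell by 1.61 ± 0.22 (adjusted p = 0.000662). PPARGC1A, a coactivator, went from 1.06 CPM to 0 reads (adjusted p = 0.00675). This 0 is to be read with the scarcity of low counts in the foregut libraries. GPBAR1 and FABP6 then differed between the replicates of LTR5-repressed foregut, at 7.50 and 1.01 CPM and at 10.3 and 0 CPM.

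From hESC to endoderm control 4 of 33 fitted genes were called higher (12.1%) and 6 lower (18.2%), against 14.2% and 11.8% of all genes. HNF4A, the central hepatic nuclear receptor, had no read in hESC and 4.42, 21.6 and 17.2 CPM in endoderm control (adjusted p = 2.64e-06). PPARA, a fatty acid sensor, rose by 2.37 ± 0.38 (adjusted p = 0.00015), ACOX2 by 1.72 ± 0.35 (adjusted p = 0.000988) and ATP8B1, a canalicular lipid flippase, by 1.69 ± 0.33 (adjusted p = 0.000738). NR5A2 fell by 2.95 ± 0.25 (adjusted p = 2.27e-07). SLC51A fell by 4.21 ± 0.79 (adjusted p = 0.000551), CYP39A1 by 1.89 ± 0.51 (adjusted p = 0.00826) and SLC27A2, an acyl-CoA synthetase, by 1.66 ± 0.25 (adjusted p = 8.66e-05). With the sgRNA in endoderm 0 of 32 fitted genes were called by edgeR, and at an unadjusted p under 0.05, 2 were lower, against 2.52% of all genes.

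Hepatocyte markers bear on the label of the foregut cells. Of 12 markers 9 were called higher in foregut control than in endoderm control, against 14.1% of all genes, and their summed level was 1.12 to 3.58 CPM in endoderm control and 2877 to 3752 CPM in foregut control. TTR, a plasma carrier protein made by early hepatic endoderm, had 0 reads in every endoderm library and 1452.5 and 2050 CPM in foregut control. ALB, AHSG and TAT, also hepatocyte genes, had no read in any foregut library. The sum in LTR5-repressed foregut was 2871 to 2971 CPM, while BAAT was 94.9 against 1.04 CPM. Of 9 fitted hepatocyte markers 2 were called lower and 0 higher there, against 0.165% of all genes called in either direction. AFP, the fetal albumin, went from 176 and 5.06 CPM to 0.0314 and 0 CPM. Other markers differed between the foregut groups as well. PDX1, the pancreas and duodenum factor, went from 25.5 and 25.9 CPM to 2.42 and 8.50 CPM. CDX2, an intestinal factor, went from 23.1 and 12.9 CPM to 1.44 and 4.13 CPM. Of 11 fitted foregut endoderm markers 1 was called lower and 0 higher, against 0.165% of all genes called in either direction. Of 5 fitted intestinal markers 1 was called lower and 0 higher. Mesoderm and mesenchyme markers summed to 242 to 253 CPM in foregut control and 328 to 349 CPM in CRISPRi, and 0 of 6 fitted were called. Intestinal markers summed to 126 to 131 CPM in foregut control and to 51.2 to 70.0 CPM in CRISPRi, where 4 of 6 were at 0. Definitive endoderm markers summed to 630 to 700 CPM and 568 to 741 CPM, and FOXA2 was at 391 to 474 CPM in all 4 libraries. In bulk samples fewer cells of a type and less RNA per cell cannot be told apart. The part of these differences in the rise of BAAT was not tested.

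The rise was also set against the neighbours of BAAT. Within 500 kb of the MER11A start 6 genes, BAAT included, had reads in every foregut library. MRPL50 and ZNF189, whose starts lie at -13.6 and -13.8 kb (negative is upstream of BAAT), had log2 fold changes of 0.26 ± 0.35 and -0.28 ± 0.38. RNF20 (-0.39 ± 0.37), PGAP4 (0.08 ± 0.40) and PLPPR1 (0.12 ± 0.44) were likewise near 0, and 0 of these 5 neighbours were called.

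**Figure D4:**
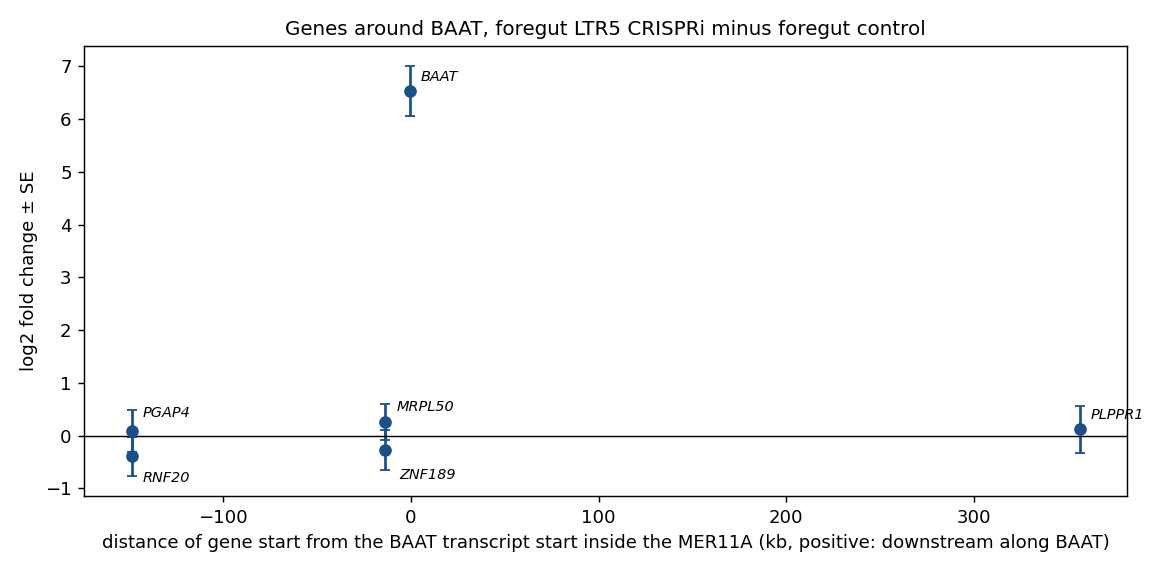
Log2 fold change with SE of the 6 genes around BAAT with reads in every foregut library, foregut LTR5 CRISPRi against foregut control, by distance in kb from the BAAT start inside the MER11A. BAAT stands at 6.52 ± 0.47 and the 5 neighbours lie between -0.39 and 0.26.

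Reads assigned to the MER11A of BAAT itself did not follow the gene. It had 19 reads in foregut control replicate 2 alone, 0 in foregut control replicate 1, none in foregut LTR5 CRISPRi and at most 1 in any other library. By the study's methods genes and integrants were counted from 1 joint annotation, to keep reads from being ambiguous between them, and integrants over exons were left out of its own analysis. This integrant shares 542 bases with exons of BAAT and is listed in the deposited table, and how reads in the shared bases were split was not tested. Over the 916 integrants whose name holds MER11A, reads per 1000000 gene reads were 20.01 and 12.8 in foregut control and 4.58 and 3.17 in foregut LTR5 CRISPRi. These summed reads were thus lower where BAAT was higher. They came from 653 and 475 reads in foregut control and 146 and 66 in CRISPRi, over all 916 integrants. Whether the scarcity of low gene counts in foregut libraries extends to integrants was not tested. In endoderm they were 4.27, 3.85 and 3.91 in controls and 2.40, 4.79 and 5.53 with the sgRNA. Beside BAAT, the named genes with an annotated start in an integrant whose name holds MER11A were GSTM2 and TXNRD2. Unlike that of BAAT, these integrants also hold internal HERVK11 sequence. Whether the starts lie in their MER11A part was not tested. GSTM2, a glutathione transferase, was at 17.6 and 24.5 CPM in foregut control and 20.9 and 31.0 CPM in CRISPRi, and TXNRD2, a thioredoxin reductase, at 5.30 and 12.4 CPM and 8.35 and 3.84 CPM. In both the groups overlapped.

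ZNF468 and ZNF808 are KRAB zinc finger genes that the study ties to the MER11A of BAAT. ZNF808 had 7.07, 2.88 and 3.42 CPM in endoderm control and 1.74, 2.65 and 2.16 CPM in endoderm LTR5 CRISPRi. Its log2 fold change was -1.001 ± 0.358 (adjusted p = 0.73). ZNF468 had 17.9, 15.6 and 10.4 CPM and then 6.30, 9.58 and 9.24 CPM, a log2 fold change of -0.79 ± 0.25 (adjusted p = 0.583). The groups did not overlap for either gene, as for 5.5% of all genes on the lower side, and neither was called. In foregut ZNF808 was at 0.858 and 1.18 CPM in controls and 0.0314 and 0 CPM in CRISPRi. ZNF468 was at 4.14 and 3.04 CPM and 2.83 and 3.17 CPM, where the groups overlapped. Of these 2 genes 0 were called in foregut, and 0 passed an unadjusted p under 0.05. For ZNF808 the foregut groups did not overlap, as for 16% of all genes on the lower side. Its low values are to be read with the scarcity of low counts in the foregut libraries. From endoderm control to foregut control both fell, ZNF808 by 2.11 ± 0.53 (adjusted p = 0.0135) and ZNF468 by 2.01 ± 0.36 (adjusted p = 0.00268). DYSF, a muscle membrane repair gene, and IQCG were named by the study beside BAAT. DYSF was at 15.3 and 18.7 CPM in foregut control and 36.6 and 24.9 CPM in CRISPRi, and IQCG at 19.6 and 17.5 CPM and 33.6 and 36.1 CPM. Their log2 fold changes of 0.93 ± 0.41 each were not called (adjusted p = 0.9996 for both), and both are small beside the 6.52 of BAAT. At an unadjusted p under 0.05, 2 of 2 were higher, against 1.51% of all genes. These genes were picked by the study on the same libraries.

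The genes most like BAAT over the 12 libraries were, by Pearson r of log2(CPM + 1) among 16046 genes, FAR2P4, ADGRF1, GH1, TCF15, CHADL, GHRL, PAPPA and TMPRSS4, with r from 0.988 to 0.976. The likeness is a description, since it rests on the 2 libraries of LTR5-repressed foregut. In these FAR2P4 had 1.41 and 1.68 CPM and 0 elsewhere, and ADGRF1 had 1.76 and 2.21 CPM and 0 elsewhere. TCF15 went from 2.51 and 1.96 CPM in foregut control to 9.39 and 11.6 CPM. PAPPA went from 0.368 and 1.43 CPM to 6.31 and 11.1 CPM. Among the other 9 bile acid genes, r to BAAT was -0.13 for SLC27A5, -0.36 for CYP27A1 and -0.82 for FGF19.

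In the gastruloids 3422 nuclei were kept, with 58963061 unique molecular identifiers (UMIs). The preparation had no replicate, and the exact Poisson 95% intervals cover counting error only. BAAT had 62 UMIs in 55 nuclei, or 1.05 per 1000000 UMIs (0.806 to 1.35). On the same scale CYP27A1 had 14.5 (13.5 to 15.5), SLC27A5 11.7 (10.8 to 12.6) and FGF19 16.8 (15.7 to 17.8). ABCB11, with 50 UMIs (0.848, interval 0.629 to 1.12), and SLC10A1, with 60 UMIs (1.02, interval 0.777 to 1.31), were seen here although no bulk library had a read. Whether free RNA gave these UMIs was not tested, and no doublets were removed. CYP7A1, CYP8B1, NR0B2 and NR1H4 were not among the 17493 genes of the table. Of the 205374 accessible peaks, 1 or more overlapped the RefSeq promoter window of CYP27A1, as for 58.4% of all windows. The windows of BAAT lay 2643 and 2952 bases from the nearest peak, that of SLC27A5 1443, ABCB11 2542, SLC10A1 15058 and NR1H4 35557 bases.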

How the data were processed

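Bulk RNA-seq libraries were aligned by the authors to hg19 (GRCh37) with HISAT2, and uniquely mapped reads were counted with featureCounts on 1 annotation of genes and transposable elements. What the authors deposited are unnormalized counts, for 63677 gene IDs and 4570939 transposable element integrants. The deposited gastruloid values are raw UMI counts and peak positions made by the authors with Cell Ranger on GRCh38. Whether counting used the strand is not given in the sources used here.

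The members and lists were chosen with earlier results of these data known. Counts were tested with edgeR 4.0.16 (TMM, quasi-likelihood, 2-sided, 2 groups per fit) where a sample held at least 3 reads, in R 4.3.3, and DESeq2 1.42.0 and limma 3.58.1 as alternatives. SEs are the log2 fold change divided by the square root of F. CPM and reads per kilobase used merged GENCODE exons, pandas 2.3.3, numpy 2.4.6 and scipy 1.17.1, and plots matplotlib 3.10.9 in python 3.11.15. Gene IDs found in the annotation numbered 55665. Foregut endoderm markers were matched for 11 of 12. Nuclei needed 1000 UMIs, 200 genes and at most 25% mitochondrial UMIs, and no doublet caller was run. Named were the 10 members, called wider bile acid genes with a group mean of at least 1 CPM (at most 8 per comparison), the 8 genes most like BAAT, markers, and genes the study names.

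Tested on simulated data, the foregut comparison with the sgRNA found 73 of 100 genes changed 2 log2 units and 85 of 100 changed 3 log2 units, with 26 false calls among 18828 genes, and that in endoderm found 100 of 100 at both sizes with 15 false calls among 19336. Changes were planted only in genes above a lower limit of mean CPM, so these rates do not extend to genes with fewer reads. The sequence of the sgRNA was not used here. The results for some items are not reported here.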

Additional observations from a re-analysis of the deposited data

Results flagged for a closer look

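CYP27A1 and DYSF moved in opposite directions with the sgRNA in endoderm and in foregut, in every library of each tissue. The ratio of mean CPM, LTR5 CRISPRi over control, was 1.54 in endoderm and 0.552 in foregut for CYP27A1, and 0.386 and 1.81 for DYSF. In both genes all 3 endoderm CRISPRi libraries lay on 1 side of the controls and both foregut CRISPRi libraries on the other. In endoderm 4.65% of all genes were so separated on the higher side and 5.5% on the lower, and in foregut 9.71% and 16%. The 2 genes were found by looking through the named genes. For CYP27A1 the endoderm CRISPRi values were 76.3 CPM in replicate 1 and 46.6 CPM in each other replicate. Without CRISPRi replicate 1 its endoderm log2 fold change was 0.31, against 0.67 with all libraries. The foregut controls of CYP27A1 spanned 15.2 to 33.1 CPM, against 12.5 to 14.1 CPM in CRISPRi. The difference between the tissues was not tested. Neither gene was called in endoderm, and DYSF was not called in foregut either.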

How the results depend on the processing

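In the 3 comparisons not used to choose the genes, 167 fold changes of the 10 genes were had under alternatives, of which 157 kept direction and call, 5 gained the call, 1 lost it and 4 reversed. The adjusted p alone and the unadjusted p with the fold limit reuse the main fit, so they can change a call but not a direction. The reversals were FGF19 without hESC replicate 1 (0.034) and, in endoderm with the sgRNA, without control replicate 1 (0.07) or CRISPRi replicate 3 (0.0944), and SLC27A5 without CRISPRi replicate 1 (-0.14). All lie within their SE, and leaving out each library in turn gave -0.66 to 0.034, -0.49 to 0.0944 and -0.14 to 0.59 in the same order. BAAT in foregut with the sgRNA stayed between 6.48 and 6.58 under all 16 alternatives, which is a description, since this contrast chose the gene. From hESC to endoderm, 2 members in place of 1 were called with limma voom, with all 12 libraries in 1 fit, by the adjusted p alone and by the unadjusted p with the fold limit.

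Counts of all genes called moved most where few were called. In endoderm with the sgRNA 7 became 47 with DESeq2, 1 with limma voom, filterByExpr or all 12 libraries, 186 with no filter on low counts and 550 by unadjusted p. Leaving out 1 library gave 1 to 9: 1 without CRISPRi replicate 1, control replicate 1 or control replicate 2, and 4 without CRISPRi replicate 2. In foregut with the sgRNA 33 became 11 with limma voom, 1 with filterByExpr, 204 with all 12 libraries, 504 by unadjusted p and, chosen after seeing the data, 4 with at least 1 CPM in each library of 1 group. Leaving out 1 library gave 16 to 527: 527 without CRISPRi replicate 1, 74 without CRISPRi replicate 2 and 16 without control replicate 1. Leaving out 1 library gave 4006 to 5544 genes from hESC to endoderm and 4976 to 8095 from endoderm to foregut control, where members called were 2 to 3. The cause was not tested.

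The titles give replicate numbers and do not say whether same-numbered libraries were made together. Correlations of the deviations of same-numbered libraries ran from -0.21 to 0.18. In a group of 2 libraries the deviations mirror each other, so these correlations cannot settle a pairing. With the replicate number as a block 19 genes were called in foregut with the sgRNA, and 1 member in place of 2 from endoderm to foregut control, where BAAT lost its call. In the crossed pairing, chosen after seeing the data, 74 genes were called. The 50 kb window around BAAT raised the highest reads of integrants from 19 to 43 in foregut control and from 0 to 10 in foregut CRISPRi. Integrants of a single LTR5 name gave log2 ratios of -0.26 in endoderm (exact permutation p = 0.3) and -0.73 in foregut, against -0.67 and -0.76, and all nuclei kept each gastruloid value within its interval.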

Other observations

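ACOT1, ACOT2, ACOT4 and ACOT6 encode acyl-CoA thioesterases of the protein family to which BAAT belongs. ACOT6 had no read in any library. Of the 3 genes fitted, 0 were called in any of the 4 comparisons by edgeR, and at an unadjusted p under 0.05, 1 was lower in foregut with the sgRNA, against 1.98% of all genes. That gene was ACOT2, a mitochondrial enzyme, at 3.80 and 6.94 CPM in foregut control and 1.54 and 0 CPM in foregut LTR5 CRISPRi, opposite in direction to BAAT. ACOT4 went from 1.41 and 0.888 CPM to 0.408 and 0 CPM, and ACOT1 from 0.368 and 0.350 CPM to 0 and 2.50 CPM, where the groups overlapped.

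SLC27A5 also holds a short MER11A fragment in its gene body, at chr19:59019943-59019978 (GRCh37), and NR1H4 has a MER11A 23.8 kb from its body. SLC27A5 stood at 7.69 and 9.47 CPM and NR1H4 at 0 reads in LTR5-repressed foregut. Of all protein-coding genes 15.2% have a MER11 integrant within 100 kb.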
